A study of Mus musculus with 6 samples.

Results

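The genes described here encode the machinery of programmed cell death: caspases, the Bcl-2 family, inhibitor of apoptosis proteins (IAPs) and death receptors with their signalling partners. They were the array probes whose RefSeq accession belonged to 1 of 31 listed genes. In all, 39 probes matched 30 of the 31 genes, among 20832 genes named on the array. A probe is called detected here where the scanner software flagged its spots as well above background. In all, 28 of the 30 genes were detected on every array of one group or the other, and these were tested. Bik and Hrk, which encode killer proteins of the BH3-only class, were not detected on any array, and Bcl2a1a had no matched probe and was not analysed here.

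Cell death by the mitochondrial route is set by a balance inside the Bcl-2 family. BH3-only proteins sense damage and bind pro-survival relatives, which otherwise hold Bax and Bak in check; free Bax and Bak open the outer mitochondrial membrane. Cytochrome c then joins Apaf1 to activate caspase 9, while death receptors at the cell surface activate caspase 8 through Fadd. Unrestrained E2F activity after loss of Rb is known to raise several pro-death genes, and p53 is a known activator of others, which makes these genes a natural question in cells that lack both proteins.

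The cells were primary mouse prostate cells, all p53-/-, grown without serum in Prostacult medium with bFGF and bEGF. The Rb intact group (p53-/- Rbf/f) received an adenovirus carrying lacZ, and the Rb deleted group (p53-/- Rb∆f/∆f) an adenovirus carrying Cre, which removes the floxed Rb. RNA was collected 48 hours after infection, with 3 one-colour arrays per group, from experiments that the series design calls independent. The virus and the Rb genotype went together in every culture, so the effects of lacZ or Cre virus and of Rb loss cannot be told apart.

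Levels below are log2 processed intensity minus the 75th percentile of the same array, and differences are Rb deleted minus Rb intact with the SE of the limma fit. Rose and fell mean a Benjamini-Hochberg adjusted p under 0.05 over the 13731 genes tested. The targeted gene followed the labels: Rb1 stood at -1.15, -1.14 and -1.17 on the Rb intact arrays and at -3.13, -3.12 and -3.07 on the Rb deleted arrays, and it fell by 1.96 ± 0.05 (limma adjusted p = 8.35e-05). Where its probe lies relative to the deleted part was not tested. The arrays lay on 2 slides, the first with all Rb intact arrays and Rb deleted 1, the second with Rb deleted 2 and 3. Rb intact 1 stood apart: over the 28 genes its median distance from the mean of the other Rb intact arrays was 0.16, against 0.04 to 0.12 for the other 5 arrays measured in the same way. On each array, 59.0% to 63.3% of probes were detected.

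Markers of both epithelial layers of the prostate and of mesenchyme were present. Of the luminal markers, Krt18, Krt8, Cd24a and Ly6a were detected on all 6 arrays and Pbsn on 1; of the 5 luminal markers tested, none passed limma's threshold. Of the basal markers, Krt14, Trp63, Itga6, Aqp3, Jag1 and Dst were detected on all 6, Krt5 on 3 and Krt15 on none. Of 6 tested basal markers 4 fell and 1 rose, with a summed linear signal (relative to the 75th percentile) of 29.6 to 35.4 in Rb intact and 21.6 to 22.2 in Rb deleted. Of 10 mesenchymal markers 3 fell, with sums of 392 to 426 and 347 to 380. The leukocyte markers Ptprc and Lyz2 were not detected on any array; of the 4 tested, Cd14 rose, and the sum of the list was 3.76 to 7.65 in Rb intact, a range that held all Rb deleted arrays. Of the leukocyte markers, Cd3e, Itgam and Csf1r were detected on all 6 arrays and Adgre1 on 4. Of 5 endothelial markers Flt1 rose and Vwf fell, and of 5 neuroendocrine markers Uchl1 and Stmn2 fell; Vwf (detected on 3 Rb intact and 1 Rb deleted array) and Stmn2 (3 and 0) were tested only through the group where they are high. In bulk RNA, fewer cells of a type and less RNA per cell cannot be told apart, and the part of cell makeup in the results below was not tested.

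Few of the death genes passed the threshold. Of 28 tested, the caspase genes Casp2 and Casp12 rose and the death receptor gene Fas fell, 3 genes where 20.3% of all genes tested passed (9.45% rose and 10.8% fell). The median size of the difference, regardless of sign, was 0.15 over the 28 genes and 0.16 over all genes. The largest was that of Bax, 1.34-fold, and every one of the 28 intervals (95%, limma) lay within 0.75 of 0, so inside a 2-fold change. The groups did not overlap for 14 of the 28 genes, 50%, against 45.1% of all genes, with Rb deleted higher for 7 (23.3% of all genes) and lower for 7 (21.8%). Neither share lay far above that of all genes, so neither is read as a result about these genes.

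**Figure D1:**
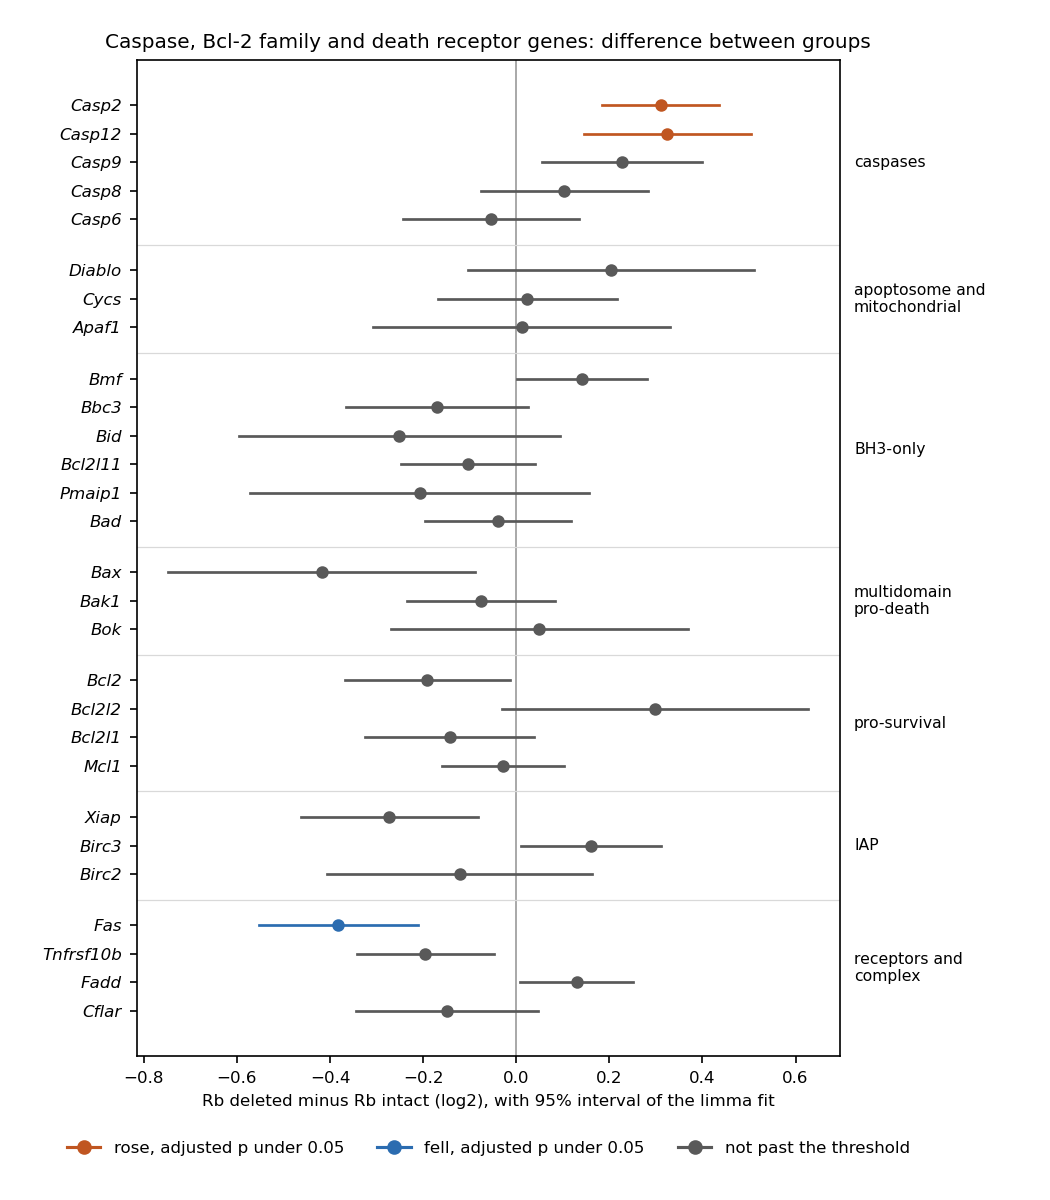
Difference between Rb deleted and Rb intact cultures (x axis, log2) for the 28 tested genes grouped by role (y axis); points are limma estimates over 3 arrays per group and lines their 95% intervals. The orange points Casp2 and Casp12 rose, the blue point Fas fell, and the other 25 genes did not pass the threshold.

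Of 5 caspases tested, 2 rose and none fell, where 9.45% of all genes tested rose and 10.8% fell. Positive differences were found for 4, and for 7173 of all 13731 genes. Their median was 0.23 against 0.01 over all genes, and 5 genes are too few to read as a class. Casp2, a nuclear initiator caspase linked to genome damage and extra centrosomes, stood at 2.07, 2.05 and 2.07 on the Rb intact arrays and at 2.33, 2.37 and 2.43 on the Rb deleted arrays. The Rb intact arrays were nearly equal, and every Rb deleted array lay above them. Casp2 rose by 0.31 ± 0.05 (1.24-fold, limma adjusted p = 0.010). Within the first slide its difference was 0.26 (adjusted p = 0.365, or 0.146 with slide as a block), and its call was lost without Rb deleted 2 or 3 (adjusted p = 0.0551 and 0.0572).

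Casp12, an inflammatory-type caspase tied to the endoplasmic reticulum, was a dim gene, at -4.70, -4.47 and -4.56 in Rb intact and -4.32, -4.23 and -4.21 in Rb deleted. Its probe was detected on all 6 arrays, and the groups did not overlap. Casp12 rose by 0.32 ± 0.07 (1.25-fold, adjusted p = 0.0287). The call was lost without Rb intact 3 (adjusted p = 0.0789), without Rb deleted 1, 2 or 3 (0.0593, 0.115 and 0.116), with no filter on dim probes (0.0828) and with an intensity trend and robust variance together (0.0744). The difference within the first slide was 0.26 (adjusted p = 0.504, or 0.280 with slide as a block).

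Casp9, the initiator caspase of the apoptosome, stood at 0.91, 1.00 and 1.03 in Rb intact and 1.1, 1.3 and 1.22 in Rb deleted. The groups did not overlap, yet the difference of 0.23 ± 0.07 missed the threshold (adjusted p = 0.0709), and on the first slide it was 0.12. Casp8, the initiator caspase below death receptors, gave 0.10 ± 0.07 (adjusted p = 0.363) and overlapping groups, at 1.38 to 1.56 and 1.48 to 1.65. Casp6, an executioner caspase, gave -0.05 ± 0.08 (adjusted p = 0.656; 95% interval -0.24 to 0.14).

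The 3 genes of the apoptosome and of factors released from mitochondria showed no change past the threshold. Apaf1, the scaffold of the apoptosome and a known target of both E2F1 and p53, stood at -1.66, -2.09 and -2.09 in Rb intact and -1.84, -2.04 and -1.92 in Rb deleted. All Rb deleted values lay between Rb intact 1 and the other Rb intact arrays, and the difference was 0.01 ± 0.13 (95% interval -0.31 to 0.33, adjusted p = 0.958). Without Rb intact 1 the difference was 0.16 ± 0.07 (limma adjusted p = 0.121). Cycs, which encodes cytochrome c, stood at 4.61, 4.46 and 4.40 in Rb intact and 4.54, 4.59 and 4.42 in Rb deleted (0.02 ± 0.08, adjusted p = 0.85), and its other detected probe gave 0.05 ± 0.07. Diablo, whose released protein blocks IAPs, stood at 0.44, 0.92 and 0.84 in Rb intact and at 0.92, 0.92 and 0.97 in Rb deleted. Only Rb intact 1 was low, and the difference of 0.20 ± 0.13 did not pass the threshold (adjusted p = 0.30), and its other probe gave 0.07 ± 0.08.

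To show what lies upstream of the genes that passed the threshold, the 250 bases before the RefSeq start of Casp2, Casp12 and Fas are printed here 5′ to 3′ on the gene's own strand, from RefSeq windows of build GRCm38.p6. They lie at chr6:42264735-42264984 (plus strand) for Casp2, chr9:5345226-5345475 (plus strand) for Casp12 and chr19:34290409-34290658 (plus strand) for Fas. Capitals mark a match to the E2F-like motif TTTNNCGC, searched on both strands.
Casp2: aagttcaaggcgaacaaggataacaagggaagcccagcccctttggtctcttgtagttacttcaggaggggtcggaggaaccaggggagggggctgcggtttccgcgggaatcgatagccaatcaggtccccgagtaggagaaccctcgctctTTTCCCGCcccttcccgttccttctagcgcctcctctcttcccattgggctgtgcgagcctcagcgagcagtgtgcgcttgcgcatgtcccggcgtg
Casp12: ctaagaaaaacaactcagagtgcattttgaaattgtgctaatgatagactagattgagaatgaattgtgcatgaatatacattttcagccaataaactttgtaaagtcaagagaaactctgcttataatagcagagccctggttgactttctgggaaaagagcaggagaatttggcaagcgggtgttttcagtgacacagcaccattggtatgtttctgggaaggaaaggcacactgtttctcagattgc
Fas: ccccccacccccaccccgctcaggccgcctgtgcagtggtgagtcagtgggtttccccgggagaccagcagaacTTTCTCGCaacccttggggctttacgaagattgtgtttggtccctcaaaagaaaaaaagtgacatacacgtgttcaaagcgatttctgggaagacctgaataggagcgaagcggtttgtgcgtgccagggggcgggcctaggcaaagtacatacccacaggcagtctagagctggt
Casp2 held TTTCCCGC, starting 97 bases before the start, Fas held TTTCTCGC, starting 176 bases before it, and Casp12 held no match. In windows of 300 bases, from 250 before to 50 after a start, 4 of the 28 listed genes with a window had a match (14.3%), against 5.93% of all 27025 genes in the table. The others were Fadd, 12 bases before the start, and 1 of 3 Bcl2l1 windows, both on the opposite strand. The 28 genes with a window are not the 28 tested: Pmaip1 and Tnfrsf10b had no window, while the untested Hrk and Bcl2a1a had one. The share of 5.93% also covers genes that were not tested here. Among all tested genes with a window, 13.4% of those that rose, 6.53% of those that fell and 9.18% of the rest had a match. The motif was thus present in a gene that rose, in one that fell and in genes that did not pass the threshold, and a match is a description of letters only.

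BH3-only genes, the sensors that start the mitochondrial route, gave no call. Of 6 tested, 5 had a negative difference, where 6558 of all 13731 genes did, and the median was -0.14. Bbc3, which encodes Puma, stood at 0.58, 0.35 and 0.37 in Rb intact and 0.29, 0.32 and 0.19 in Rb deleted. Every Rb deleted array was lower, and the difference was -0.17 ± 0.08 (adjusted p = 0.189), or -0.10 without Rb intact 1. Bcl2l11, which encodes Bim, gave -1.75, -1.73 and -1.71 against -1.77, -1.81 and -1.92, again without overlap, and -0.10 ± 0.06 (adjusted p = 0.262). Pmaip1, which encodes Noxa, overlapped widely, at -1.91, -1.73 and -2.31 against -2.22, -2.08 and -2.26 (-0.21 ± 0.15, adjusted p = 0.369).

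Bid, which links death receptors to mitochondria, depended on a single array. Its levels were 0.62, 1.13 and 1.11 in Rb intact and 0.71, 0.70 and 0.69 in Rb deleted. Rb intact 1 lay below all Rb deleted arrays, and the other Rb intact arrays above them. Over all arrays the difference was -0.25 ± 0.14 (adjusted p = 0.258), and without Rb intact 1 it was -0.42 ± 0.03 (adjusted p = 0.00147). Bmf, a BH3-only gene linked to detachment from the matrix, stood at -3.90, -3.99 and -3.95 in Rb intact and -3.77, -3.76 and -3.87 in Rb deleted. It was the BH3-only gene with higher values in all Rb deleted arrays, but its 0.14 ± 0.06 missed the threshold (adjusted p = 0.138). Bad, a sensor of growth factor withdrawal, stood at 2.75, 2.57 and 2.62 in Rb intact and 2.62, 2.64 and 2.57 in Rb deleted. Its groups overlapped (-0.04 ± 0.06, adjusted p = 0.698), also on its other probe.

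Of the multidomain killers, Bax had the largest difference of all 28 genes without passing the threshold. Its levels were 2.67, 2.19 and 2.22 in Rb intact and 1.98, 1.97 and 1.87 in Rb deleted. All Rb deleted arrays were lower, while Rb intact 1 lay well above the rest of its group and widened the spread. The difference was -0.42 ± 0.14 (1.34-fold lower, adjusted p = 0.0783). Without Rb intact 1 Bax fell by 0.26 ± 0.05 (adjusted p = 0.0143), and within the first slide the value was -0.38 (adjusted p = 0.580). Bak1, its partner, stood at 2.77, 2.59 and 2.63 in Rb intact and 2.62, 2.58 and 2.56 in Rb deleted, with overlapping groups (-0.08 ± 0.07, adjusted p = 0.448). Bok, a relative that acts more on its own, gave 0.05 ± 0.13, with Rb intact 1 at 0.87 and the other arrays between 0.42 and 0.74.

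**Figure D2:**
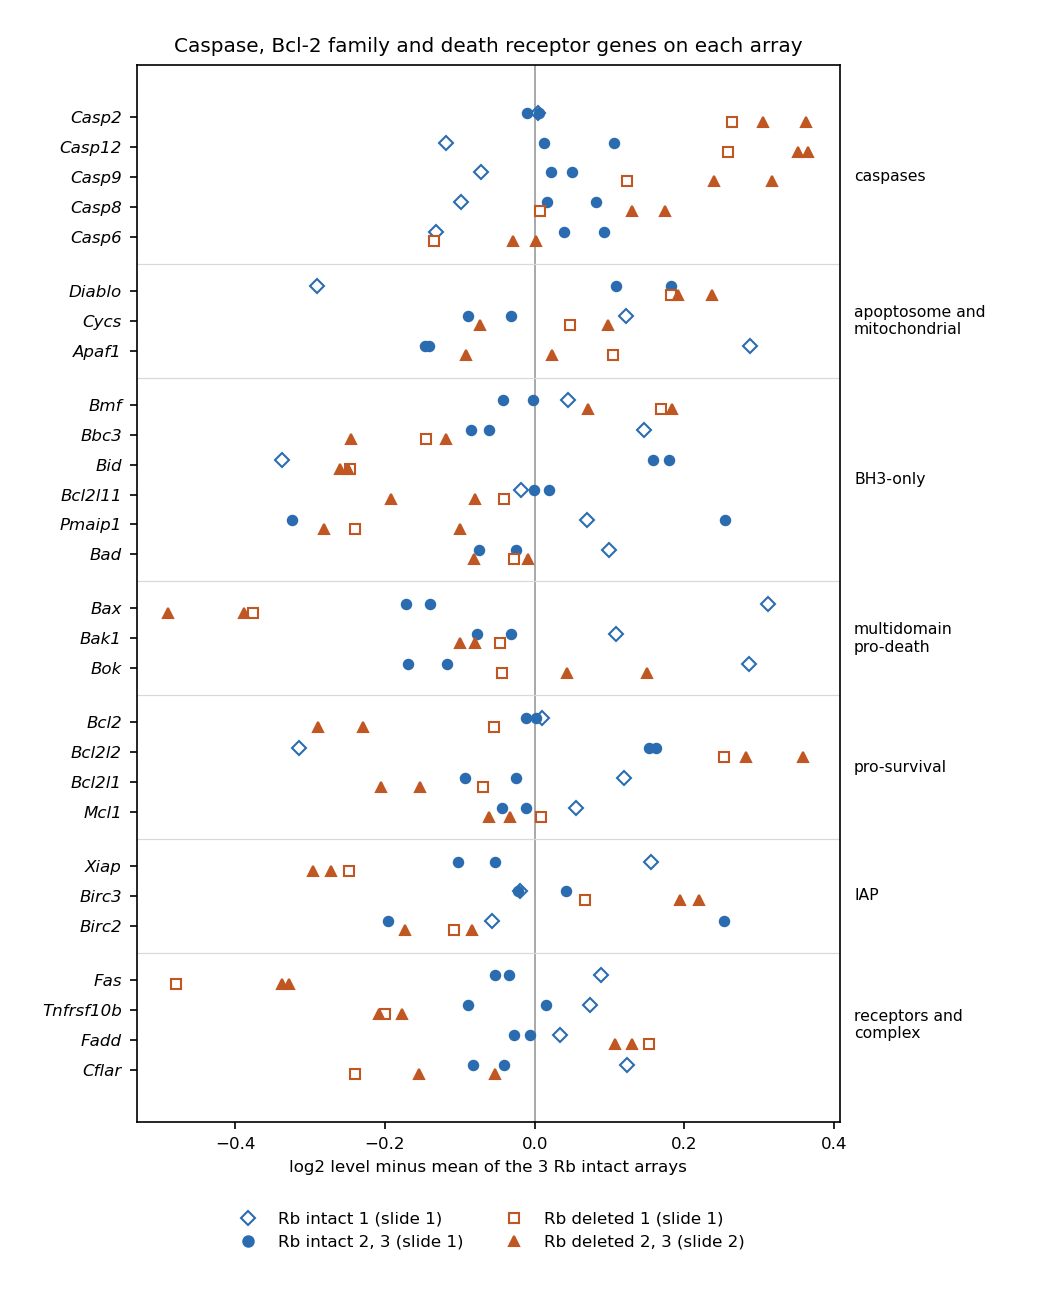
Log2 level of each of the 28 genes on each array, relative to the mean of the 3 Rb intact arrays (x axis), grouped by role (y axis); open diamonds are Rb intact 1 and open squares Rb deleted 1, the Rb deleted array on the first slide. Casp2 has tightly grouped Rb intact arrays and higher Rb deleted arrays, whereas for Bid, Bax, Bok, Apaf1, Diablo and Bcl2l2 the open diamond stands away from the other Rb intact points.

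Pro-survival genes, which bind and hold the killers, gave no call among 4 tested of 5 listed, with a median of -0.09. Bcl2, the founding member, stood at -1.85, -1.88 and -1.86 in Rb intact and -1.92, -2.15 and -2.09 in Rb deleted. The groups did not overlap, but the difference of -0.19 ± 0.07 missed the threshold (adjusted p = 0.118) and was -0.05 within the first slide. Bcl2l1, which encodes Bcl-xL, gave 4.87, 4.66 and 4.73 against 4.68, 4.60 and 4.55 (-0.14 ± 0.08, adjusted p = 0.227), and -0.07 ± 0.07 with its other probe. Mcl1, a short-lived survival protein, gave -0.03 ± 0.05 (95% interval -0.16 to 0.10) and -0.07 ± 0.06 with its other probe. Both Mcl1 probes overlapped between the groups.

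Bcl2l2, which encodes Bcl-w, was the pro-survival gene with a positive difference, and its probes did not point the same way. Probe A_55_P2132507 stood at -0.59, -0.12 and -0.13 in Rb intact and -0.03, 0.00 and 0.08 in Rb deleted (0.30 ± 0.14, adjusted p = 0.174). Probe A_55_P2144120 stood at -3.40, -4.18 and -4.21 in Rb intact and -3.99, -4.08 and -4.14 in Rb deleted (-0.14 ± 0.22, adjusted p = 0.693 over probes). On both probes Rb intact 1 was the array away from its group, in opposite directions. Tested each on its own, 3 of the 36 detected probes of these genes passed the threshold, 8.33% against 15.7% of all probes; they were the probes of Casp2, Casp12 and Fas.

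IAPs, which bind caspases or control their ubiquitylation, also gave no call among 3. Xiap, the direct caspase inhibitor, had the smallest p of the 25 genes that missed the threshold. It stood at 2.61, 2.35 and 2.40 in Rb intact and 2.21, 2.18 and 2.16 in Rb deleted, lower on every Rb deleted array (-0.27 ± 0.08, adjusted p = 0.0576). Without Rb intact 1 Xiap fell by 0.19 ± 0.04 (adjusted p = 0.0160), and with an intensity trend and robust variance together it fell by 0.27 (adjusted p = 0.0407). Birc3 (cIAP2), a ubiquitin ligase of the TNF receptor complex, stood at -1.49, -1.49 and -1.42 in Rb intact and -1.40, -1.27 and -1.25 in Rb deleted (0.16 ± 0.06, adjusted p = 0.121). Its neighbour and relative Birc2 (cIAP1) gave -0.12 ± 0.12 (adjusted p = 0.494) with overlapping groups. Cross-hybridisation between these relatives was not tested.

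Of 4 genes of the receptors and their complex, 1 fell and none rose, where 10.8% of all genes tested fell and 9.45% rose. These 4 genes are too few to read as a class. Fas, the receptor for Fas ligand, stood at 0.80, 0.65 and 0.67 in Rb intact and 0.23, 0.38 and 0.37 in Rb deleted. The groups were well separated, and Fas fell by 0.38 ± 0.07 (1.3-fold, adjusted p = 0.0140). Within the first slide the value was -0.48 (adjusted p = 0.192, or 0.0560 with slide as a block), and without Rb deleted 3 it was -0.40 (adjusted p = 0.0521). Of the markers given above, 4 of 6 tested basal markers also fell and 1 rose, and 3 of 10 mesenchymal markers fell. Their relation to Fas was not tested.

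Tnfrsf10b, the mouse receptor for the ligand TRAIL, stood at 2.83, 2.67 and 2.77 in Rb intact and 2.56, 2.58 and 2.55 in Rb deleted. Its difference was -0.20 ± 0.06 (adjusted p = 0.0693), and without Rb intact 1 it fell by 0.16 ± 0.05 (adjusted p = 0.0474). Fadd, the adaptor that joins these receptors to caspase 8, stood at -0.66, -0.72 and -0.70 in Rb intact and -0.54, -0.56 and -0.58 in Rb deleted. The groups did not overlap (0.13 ± 0.05, adjusted p = 0.119); without Rb intact 1 it rose by 0.15 ± 0.04 (adjusted p = 0.0301). Cflar, the inhibitor of caspase 8 at the receptor, gave -0.15 ± 0.08, and 0.07 ± 0.11 and -0.01 ± 0.10 with its other probes, all with overlapping groups.

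Known regulators cross these classes. Of the 7 genes known as p53 targets (Bbc3, Pmaip1, Bax, Fas, Apaf1, Tnfrsf10b and Bid), 1 fell and none rose, and 6 had a negative difference, with a median of -0.21. The groups did not overlap, with Rb deleted lower, for 4 of the 7, where 21.8% of all genes did so. Over all genes tested, 10.8% fell and 6558 of 13731 had a negative difference. Of the 6 tested genes known as E2F1 targets (Apaf1, Casp8, Casp9, Bbc3, Pmaip1 and Bcl2l11), none passed limma's threshold (1 had an unadjusted p under 0.05), 3 were positive and 3 negative, and the median was -0.05. Rb deleted was lower without overlap for 2 of these 6 and higher for 1, against 21.8% and 23.3% of all genes. Apaf1, Bbc3 and Pmaip1 are on both lists, and neither list was tested as a set. Both lists were chosen with earlier results of these data known, so their shares are not read as a result about them. All cultures of both groups were p53-/-. The untested Bik and Hrk belong to the E2F1 group.

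When Rb intact 1 was left out, 8 of 28 genes passed the threshold, 28.6% against 37% of all genes: Casp2, Casp12 and Fadd rose, and Fas, Bax, Bid, Tnfrsf10b and Xiap fell. Of genes that missed the threshold, Bcl2l2 then gave 0.14, Diablo 0.06, Bok 0.19 and Apaf1 0.16, against 0.30, 0.20, 0.05 and 0.01 over all arrays. With the slide fitted as a block, 0 of 28 passed limma's threshold, against 4.9% of all genes (2741 genes had an unadjusted p under 0.05). With the second slide dropped, 0 of 28 passed, against 1.12% of all genes (1939 at an unadjusted p under 0.05). Normexp on the median signal together with quantile normalization added Tnfrsf10b and Cflar to the genes that fell (18.9% of all genes passed), and an intensity trend together with robust variance added Tnfrsf10b and Xiap and lost Casp12 (21.5%). Casp12 was also lost with no filter on dim probes (7.12%), and an adjusted p under 0.1 added Casp9, Bax, Tnfrsf10b and Xiap (29.9%).

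**Figure D3:**
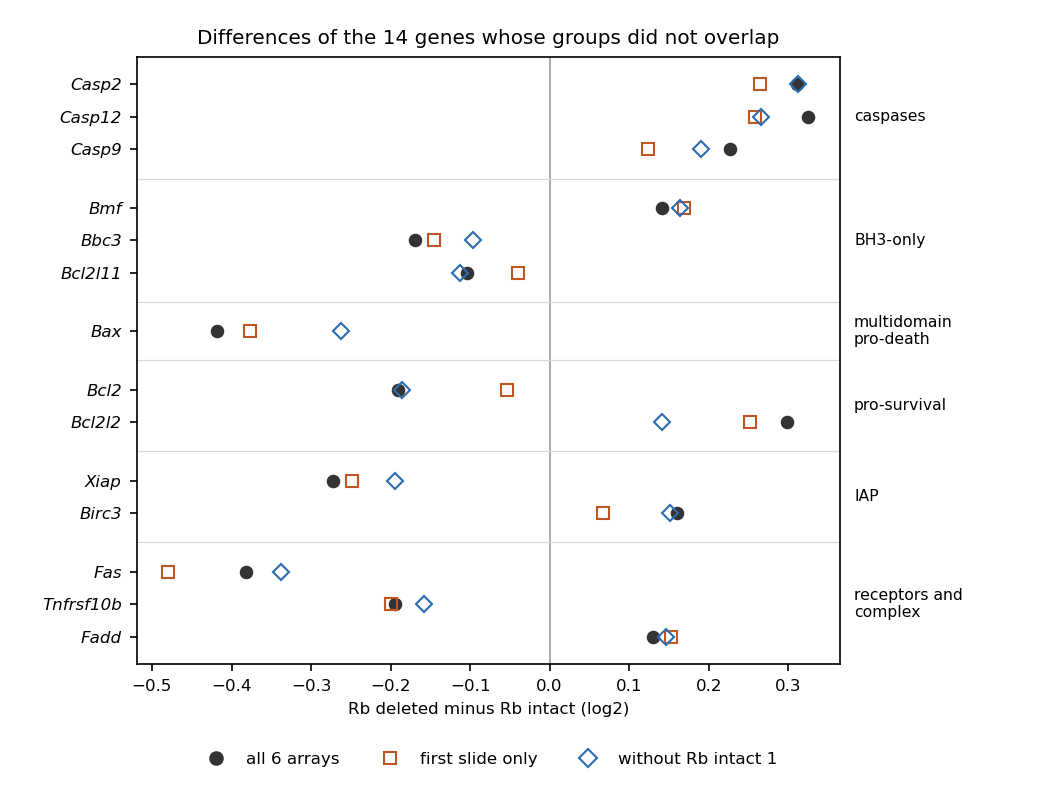
Difference between Rb deleted and Rb intact (x axis, log2) of the 14 genes whose groups did not overlap, from all 6 arrays (filled circles), from the first slide only (open squares, 1 Rb deleted array) and without Rb intact 1 (open diamonds). The sides of 0 are fixed by the choice of genes whose groups do not overlap, so only the sizes are informative: Bax shrinks from -0.42 to -0.26 without Rb intact 1, and Bcl2 from -0.19 to -0.05 on the first slide.

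Of 64 other listed genes, 52 were tested, and 7 rose and 4 fell, 21.2% against 20.3% of all genes; the sizes ranged up to 1.11. The size of 1.11 was that of a ligand gene. Tnfsf10, which encodes TRAIL, stood at -5.50, -5.66 and -5.66 in Rb intact, where it was detected on 2 of 3 arrays, and at -4.70, -4.38 and -4.42 in Rb deleted. It entered the test through the Rb deleted group, where it is high. Tnfsf10 rose by 1.11 ± 0.10 (adjusted p = 0.00133), a size that rests on values near background in Rb intact, and gave 0.90 within the first slide (adjusted p = 0.0658).

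Both calls among other receptors were falls. Tnfrsf26, a member of the TNF receptor family, stood at -4.60, -3.96 and -4.08 in Rb intact and -5.35, -5.01 and -4.72 in Rb deleted, and fell by 0.81 ± 0.22 (adjusted p = 0.0467). Tnfrsf23, a decoy TRAIL receptor, fell by 0.31 ± 0.08 (adjusted p = 0.0409), and both calls were lost when Rb intact 2 or 3, or any Rb deleted array, was left out (adjusted p from 0.0621 to 0.143). Tnfrsf23 also lost its call with array median scaling (adjusted p = 0.0524). These were 2 of the 3 calls among 18 tested ligands, receptors and adaptors, 16.7% against 20.3% of all genes. The ligand genes Fasl, Tnf and Lta were not detected on any array.

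Calls among other caspases and substrates went in both directions. Casp1, the inflammasome caspase, stood at -2.25, -2.01 and -2.04 in Rb intact and -2.76, -2.73 and -2.76 in Rb deleted and fell by 0.65 ± 0.08 (1.57-fold, adjusted p = 0.00309). Parp1, a caspase substrate and DNA repair enzyme, rose by 0.30 ± 0.06 (adjusted p = 0.0243). Parp1 stood at 0.23, 0.40 and 0.36 in Rb intact and 0.68, 0.59 and 0.61 in Rb deleted, and lost its call without Rb intact 3 or any Rb deleted array (adjusted p from 0.0645 to 0.0923).

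Genes of other death routes and of upstream control were also measured. Of 6 tested necroptosis and pyroptosis genes 33.3% passed the threshold, against 20.3% of all genes. The share was 50% for the 6 tested regulators of BH3-only genes. Lists of 6 genes are too few to read as a class. Of 6 necroptosis and pyroptosis genes, Zbp1, a sensor of nucleic acids, rose by 0.63 ± 0.08 (adjusted p = 0.00438) and Mlkl, the pore protein of necroptosis, rose by 0.41 ± 0.07 (adjusted p = 0.00943). Gsdmd, the pore protein of pyroptosis, gave -0.07 ± 0.05 (adjusted p = 0.391). Of 6 tested regulators of BH3-only genes, Ddit3 (Chop), a stress transcription factor, rose by 0.82 ± 0.08 (adjusted p = 0.00179) and Jun rose by 0.38 ± 0.07 (adjusted p = 0.0160), while Trp63, a p53 relative and basal cell marker, fell by 0.26 ± 0.07 (adjusted p = 0.0441). Jun lost its call without Rb intact 2 or Rb deleted 2 or 3 (adjusted p from 0.0562 to 0.0756). Trp63 lost its call when any array but Rb intact 1 was left out (0.0639 to 0.150), and also with median scaling (0.0768).

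The remaining Bcl-2 relatives and IAPs gave no call among 6 and 4 tested. Bcl2l15 gave 0.17 ± 0.05 (adjusted p = 0.0610), Bcl2l13 gave 0.18 ± 0.08 (adjusted p = 0.149) and Moap1, a Bax activator, gave 0.10 ± 0.06 (adjusted p = 0.329). Birc5 (survivin), an IAP that serves chromosome segregation, stood at 4.23, 4.16 and 4.14 in Rb intact and 4.29, 4.36 and 4.32 in Rb deleted, higher on every Rb deleted array (0.15 ± 0.05, adjusted p = 0.105). Birc6 gave -0.41 ± 0.16 (adjusted p = 0.115) and Naip5, a sensor of bacterial flagellin, -0.37 ± 0.15 (adjusted p = 0.129). Without Rb intact 1, Bcl2l15, Bcl2l13, Moap1 and Birc5 rose (adjusted p = 0.0327, 0.0174, 0.0480 and 0.0221) and Naip5 fell by 0.20, against -0.37 over all arrays (adjusted p = 0.0250). Without Rb deleted 2, Birc6 gave -0.23 (adjusted p = 0.123). With slide as a block, Tnfsf10, Ddit3 and Casp1 kept their calls among all 11 pathway genes that had one.

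**Figure D4:**
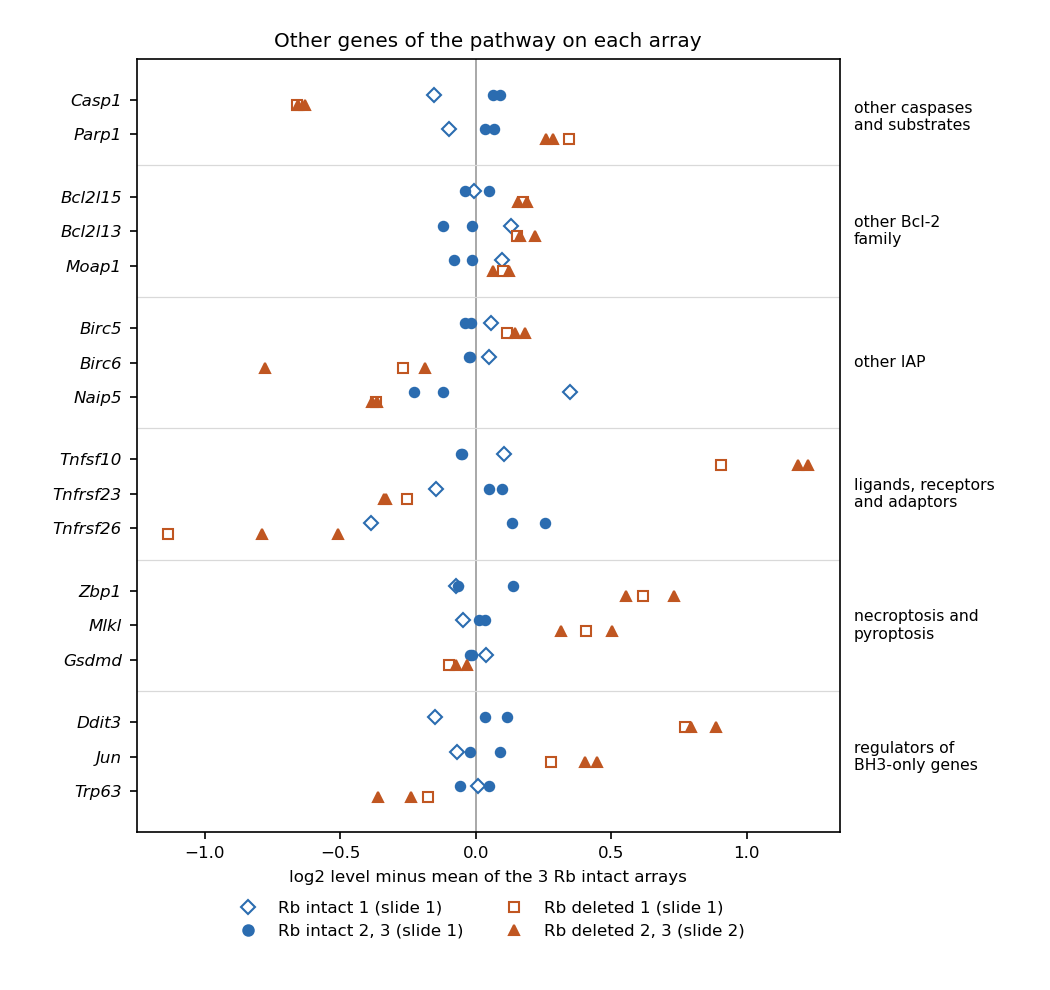
Log2 level of other genes of the pathway on each array, relative to the mean of the 3 Rb intact arrays (x axis), up to 3 genes with the smallest p in each of 6 lists (y axis); symbols are as named in the key. Tnfsf10 (detected on 2 of 3 Rb intact arrays), Ddit3 and Zbp1 lie to the right on every Rb deleted array and Casp1 and Tnfrsf26 to the left, with differences of 1.11, 0.82, 0.63, -0.65 and -0.81.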

How the data were processed

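The authors deposited 1 Agilent Feature Extraction file per array (per the file headers, of version 11.0.1.1; 10.7.3.1 in the submitters' processing notes). Its processed intensity is background-subtracted and, per the file headers, not scaled between arrays; other deposited flag columns hold 0 or 1. The authors also deposited a table of log2 values, which equalled the log2 intensity minus a constant per array within 0.01 for 100% of its probes, with column medians of -0.52 to -0.49; its centring is not given.

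Outlying spots were left out, the 43020 non-control spots averaged to 39429 probes, and log2 intensity shifted by each array's 75th percentile. Probes detected, by the flag for signal above background, on every array of either group were kept (23051). Probes were named by RefSeq accession through a gene table of GRCm38.p6, which named 27427 probes. The array was designed on another build, so no probe coordinates are given; promoter windows carry their own from GRCm38.p6. The kept probe with the highest mean stood for its gene. The comparison used lmFit and eBayes of limma 3.58.1 (R 4.3.3) with no block; the script was tested on simulated data. Exact two-sided permutation p-values cannot fall below 0.1 with 3 against 3 arrays. The number of arrays limits the precision.

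The rule for genes given in full took those past the threshold, up to 8 more whose groups did not overlap, the brightest of each role, and the 3 with the smallest p of each other pathway list. Values by array of Apaf1, Diablo, Bbc3, Bcl2l11, Pmaip1, Bid and Bcl2l2 were added after their values were seen. The members and lists were chosen with earlier results of these data known. Protein sequences were not used here. Some listed genes are not reported here. Alternatives covered scaling, background correction, dim-probe filter, probe choice, variance model, deposited values, slide, replicate number, threshold and each array left out.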

Additional observations from a re-analysis of the deposited data

How the results depend on the processing

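Over the other settings the directions of Rb1, Casp2, Casp12 and Fas did not turn in any. Their groups did not overlap, so leaving out an array or the second slide, or fitting slide as a block, could not turn them. The counts did change. The main counts were 2 genes that rose, 1 that fell and 2781 of all genes past limma's threshold. Normexp with quantile normalization gave 3 that fell, an intensity trend with robust variance 1 that rose and 3 that fell, and an adjusted p under 0.1 gave 4 that fell. With no filter on dim probes 1 rose, and 1483 of all genes passed. With slide as a block 0 rose and 0 fell, and 673 of all genes passed; on the first slide alone 0 rose and 0 fell, and 154 passed. Leaving out 1 array at a time gave 0 to 3 that rose, 0 to 5 that fell and 1228 to 5083 of all genes; 5083 was without Rb intact 1 and 1228 without Rb deleted 3. The cause was not tested, beyond fewer arrays or more genes in a fit.

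The replicate numbers gave no sign of pairing. Same-numbered deviations from the group means correlated at -0.03, -0.05 and 0.02 over genes, and not every sample correlated best with its own number. With 3 arrays per group, this cannot show that the cultures were unpaired. With the replicate block 0 genes rose and 0 fell, and 1636 of all genes passed.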

Other observations

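Some of the listed genes adjoin relatives or genes with larger changes on their chromosome. These were singled out after their values were seen. By gene order in GRCm38.p6, Casp12 lies beside Casp4 and then Casp1, its inflammatory relatives. Casp12 rose by 0.32, Casp4 gave -0.15 ± 0.07 (limma adjusted p = 0.193) and Casp1 fell by 0.65. Fas lies between Acta2, the smooth muscle actin gene, which fell by 1.35 ± 0.14 (adjusted p = 0.00212), and Ch25h, an interferon-induced cholesterol hydroxylase gene, which rose by 0.26 ± 0.07 (adjusted p = 0.0494). Cflar and Casp8, an inhibitor and its target, are also neighbours and gave -0.15 ± 0.08 and 0.10 ± 0.07, neither past the threshold.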
